A study of Mus musculus with 46 samples.

Results

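The genes Dazl, Ddx4, Slc25a31, Tex19.1, Tex101, Brdt and Asz1 were followed across mouse germline and pluripotent stem cell lines. They form a list of germline genes known to be repressed by promoter DNA methylation, were chosen by symbol, and were all found, as 7 of the 19938 genes with a single symbol on the arrays. Each had 1 probe set. Expression was measured on 46 arrays of 23 cell lines in 8 groups, with 2 cultures of each line. DNA methylation was not measured in the data used here.

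The germline stem (GS) cells are spermatogonial stem cells kept in culture, and 3 lines were used. The 2 lines of multipotent germline stem (mGS) cells have no treatment label. In the other mGS groups, of 3 lines each, lentivirus carried a knockdown of p53 together with a knockdown of Dnmt1 (Dnmt mGS), a knockdown of Dmrt1 (Dmrt mGS), Sox2 (Sox2 mGS) or Oct4 (Oct4 mGS), so all 4 induced groups share the p53 knockdown. The 3 induced pluripotent stem (iPS) lines received Oct4, Sox2, Klf4 and c-myc by retrovirus. All these lines carry the DBA/2 strain and a GFP transgene. The embryonic stem (ES) lines were R1, from 129 substrains, B6-6, from C57BL/6J, and BRC1, from (B6xDBA2)x129, so ES and strain cannot be told apart. Pluripotent lines grew on embryonic fibroblasts with serum and LIF, and GS cells in a serum-poor medium with GDNF and FGF2, so cell type and medium cannot be told apart where GS is compared. The sources used here do not say whether a line is 1 clone, and p-values measure the spread between these lines.

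Cytosine methylation at CpG dinucleotides of a promoter can hold a gene silent through cell division, because DNMT1, brought to replicated DNA by UHRF1, copies the marks to the new strand, while DNMT3A, DNMT3B and their cofactor DNMT3L place new marks. Germline genes with CpG-containing promoters are a well-studied class under this control: they are methylated when the embryo forms its somatic lineages and are unmethylated in germ cells. Dazl and Ddx4 encode RNA-binding proteins of germ cells, a translational regulator and an RNA helicase. Asz1 encodes a mitochondrial-surface protein of the piRNA pathway, which restrains transposons, and Tex19.1 is a mammal-specific gene that also restrains them. Brdt is a bromodomain gene of the testis, Tex101 encodes a surface glycoprotein of germ cells, and Slc25a31 encodes the germ cell ADP/ATP carrier of mitochondria, also called Ant4.

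The promoters of the members carry many CpG dinucleotides, the site at which methylation acts. In the 250 bases before each annotated start (RefSeq, GRCm38.p6; 7 of 7 matched), the count was 20 in Dazl, 31 in Ddx4, 18 in Slc25a31, 15 in Tex19.1, 14 in Tex101, 16 in Brdt and 15 in Asz1. For Ddx4 and Brdt the start used lies inside the annotated gene. The whole Ddx4 window (112652311 to 112652560, minus strand) falls within a gene that ends at 112652633. The Brdt window (107330944 to 107331193, plus strand) runs past the gene's outer start at 107331116. The median of the 7 was 16, against a median of 10 and quartiles of 3 and 19 over 21255 windows of 17486 protein-coding genes. Thus 5 of the 7 lay between the median and the upper quartile, and Dazl and Ddx4 lay above it. Sequences of 4 members, those with the largest rise in Dnmt mGS and the one whose highest line outside GS was lowest relative to GS, are shown 5′ to 3′ on the gene's strand, with each CpG in capitals. They lie at chr17:50293621-50293870 on the minus strand (Dazl), chr3:40708621-40708870 on the plus strand (Slc25a31), chr6:18109062-18109311 on the minus strand (Asz1) and chr7:24672051-24672300 on the minus strand (Tex101), each directly upstream of the annotated gene.
Dazl: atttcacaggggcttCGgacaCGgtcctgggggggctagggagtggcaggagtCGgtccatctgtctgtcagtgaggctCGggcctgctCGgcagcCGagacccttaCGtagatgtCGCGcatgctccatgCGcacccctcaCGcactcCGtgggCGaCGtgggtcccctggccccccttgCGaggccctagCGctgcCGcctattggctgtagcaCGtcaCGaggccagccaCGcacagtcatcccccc
Slc25a31: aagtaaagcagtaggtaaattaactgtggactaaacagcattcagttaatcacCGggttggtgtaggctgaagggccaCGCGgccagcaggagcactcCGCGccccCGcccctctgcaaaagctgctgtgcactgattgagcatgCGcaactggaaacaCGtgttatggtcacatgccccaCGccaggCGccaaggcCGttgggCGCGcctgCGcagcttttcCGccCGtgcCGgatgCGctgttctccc
Asz1: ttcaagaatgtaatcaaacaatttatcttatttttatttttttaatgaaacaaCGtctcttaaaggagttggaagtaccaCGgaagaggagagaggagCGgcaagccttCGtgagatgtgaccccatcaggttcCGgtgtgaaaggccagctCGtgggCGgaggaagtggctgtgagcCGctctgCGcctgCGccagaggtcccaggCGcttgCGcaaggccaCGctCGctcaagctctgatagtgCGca
Tex101: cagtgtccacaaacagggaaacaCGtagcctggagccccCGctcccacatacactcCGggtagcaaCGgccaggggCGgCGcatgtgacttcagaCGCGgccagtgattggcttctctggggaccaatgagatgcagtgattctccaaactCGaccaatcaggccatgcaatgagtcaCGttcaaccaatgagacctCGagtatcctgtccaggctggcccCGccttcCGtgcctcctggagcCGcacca

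In these windows the CpGs are spread over most of the length in Dazl, while the stretch farthest from the start holds none in Slc25a31 and Asz1. Short motifs of known repressors of germline genes were also searched on both strands. The E-box CACGTG, bound by MGA and MAX, was in 3 of 7 members (Ddx4, Slc25a31 and Brdt) and in 6.63% of all windows. In Slc25a31 it began 93 bases before the start. GCGGGA, a core of the E2F6 motif, was in 2 of 7 (Ddx4 and Tex19.1) and in 21.8% of all windows. The matches in Ddx4 and the E-box in Brdt lie inside the annotated gene, not upstream of it. The other members hold neither set of letters in this window.

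**Figure D1:**
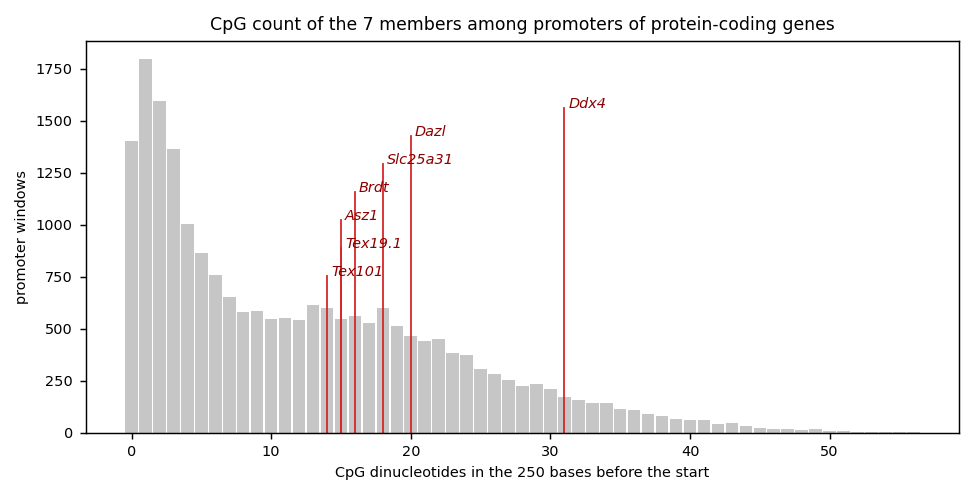
CpG dinucleotides in the 250 bases before the annotated start (x axis) for 21255 promoter windows of protein-coding genes (grey bars, number of windows on the y axis), with red lines at the 7 members. The members lie between 14 (Tex101) and 31 (Ddx4), all above the median of 10. The starts used for Ddx4 and Brdt lie inside the annotated gene.

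Signal is linear intensity, and n counts lines, with the 2 cultures of a line averaged on the log2 scale. A background level of 161 was taken from genes of smell receptors, as their 95th percentile. There were 1027 of these, with a median intensity of 64.9. Array medians lay between 215.4 and 264.8, with culture 1 of Oct4 mGS 1 the highest and the next at 242.5. The knockdown target checks the labels. Dnmt1 read 606 and 634 in the cultures of Dnmt mGS 1 and 650 and 643 in those of Dnmt mGS 3, but 2762 and 2742 in the line labelled Dnmt mGS 2, and 1934 to 2772 in the other 17 lines outside GS. That line therefore does not show the labelled knockdown. Over 19938 genes, with each gene centred on its mean over the 20 lines outside GS, the profile of Dnmt mGS 2 was most like Dmrt mGS 1 (Pearson r = 0.90 across genes, which are not independent) and next like Dnmt mGS 1 (r = 0.78). Its r with Dnmt mGS 3 was -0.01, and that of Dnmt mGS 1 with Dnmt mGS 3 was 0.22. Calls of the members that depended on the line labelled Dnmt mGS 2 are also given without it.

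GS cells held the highest level of every member. In all 7 comparisons with the other groups limma called 7 of 7 members higher in GS. Their lines did not overlap there, but the share of all genes without such overlap was not counted. The share of all genes called higher in GS by limma was 26% against ES, 35.5% against iPS, 26.9% against mGS, 30% against Dnmt mGS, 24.1% against Dmrt mGS, 24.6% against Sox2 mGS and 22.6% against Oct4 mGS. Against iPS it was 7076 genes higher and 3693 lower, or 4712 and 4091 after centring of each array by its median. The median of all genes was itself 0.17 higher (log2) in GS than in iPS, against a median of 5.17 over the members.

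Among the RNA-binding regulators, Dazl read 16583 and 16077 in GS 1, 14722 and 16189 in GS 2, and 18522 and 12848 in GS 3. In the iPS cultures it read 532 and 543, 307 and 307, and 548 and 456. Every GS culture was above every iPS culture, and the difference was 5.17 ± 0.51 (log2, limma standard error, adjusted p = 1.7e-07). Ddx4 read 5569 and 5729, 4484 and 5225, and 4560 and 3672 in GS, against 201 to 426 in the iPS cultures, a difference of 4.25 ± 0.27 (adjusted p = 7.3e-10). Both genes stayed above the background level in all 20 lines outside GS.

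Of the transposon-control genes, Asz1 read 4135 and 3863, 4439 and 4206, and 4440 and 3526 in GS, against 50.9 to 72.5 in iPS, which is background. It was at least 25.4-fold higher in GS than in iPS. Tex19.1 differed less between GS and the rest. It read 656 and 502 in GS 1, 1197 and 1112 in GS 2, and 1010 and 995 in GS 3, and the highest line outside GS, Dmrt mGS 1 at 561, came within 1.02-fold of GS 1. Its difference between GS and iPS was 1.45 ± 0.34 (adjusted p = 0.0018) and between GS and ES 0.90 ± 0.34 (adjusted p = 0.041). The call against ES was lost without any 1 of the 3 ES lines, without GS 2 or GS 3, and with arrays quantile-normalized or centred on their medians. That against Dnmt mGS (1.03 ± 0.34, adjusted p = 0.019) was lost without GS 2, GS 3 or Dnmt mGS 3, and that against mGS (1.45 ± 0.38, adjusted p = 0.0053) without mGS 2.

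Tex101, the surface glycoprotein, read 4324 and 3922, 4695 and 4745, and 4181 and 3878 in GS, and no line outside GS reached the background level. It was at least 26.6-fold higher in GS than in iPS, and its lowest GS line was 25.3 times its highest line elsewhere. Brdt, the bromodomain gene, varied between GS lines, at 4240 and 3933 in GS 1, 1939 and 2624 in GS 2, and 2175 and 2009 in GS 3, and its difference from iPS was 4.01 ± 0.18 (adjusted p = 5.1e-12). Slc25a31, the carrier gene, read 5943 and 5532, 4651 and 4737, and 4603 and 3917 in GS and was at least 30.1-fold higher there than in iPS. The ratio of the lowest GS line to the highest line elsewhere was 11.6 for Asz1, 9.5 for Ddx4, 8.55 for Brdt, 7.37 for Dazl and 5.62 for Slc25a31.

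**Figure D2:**
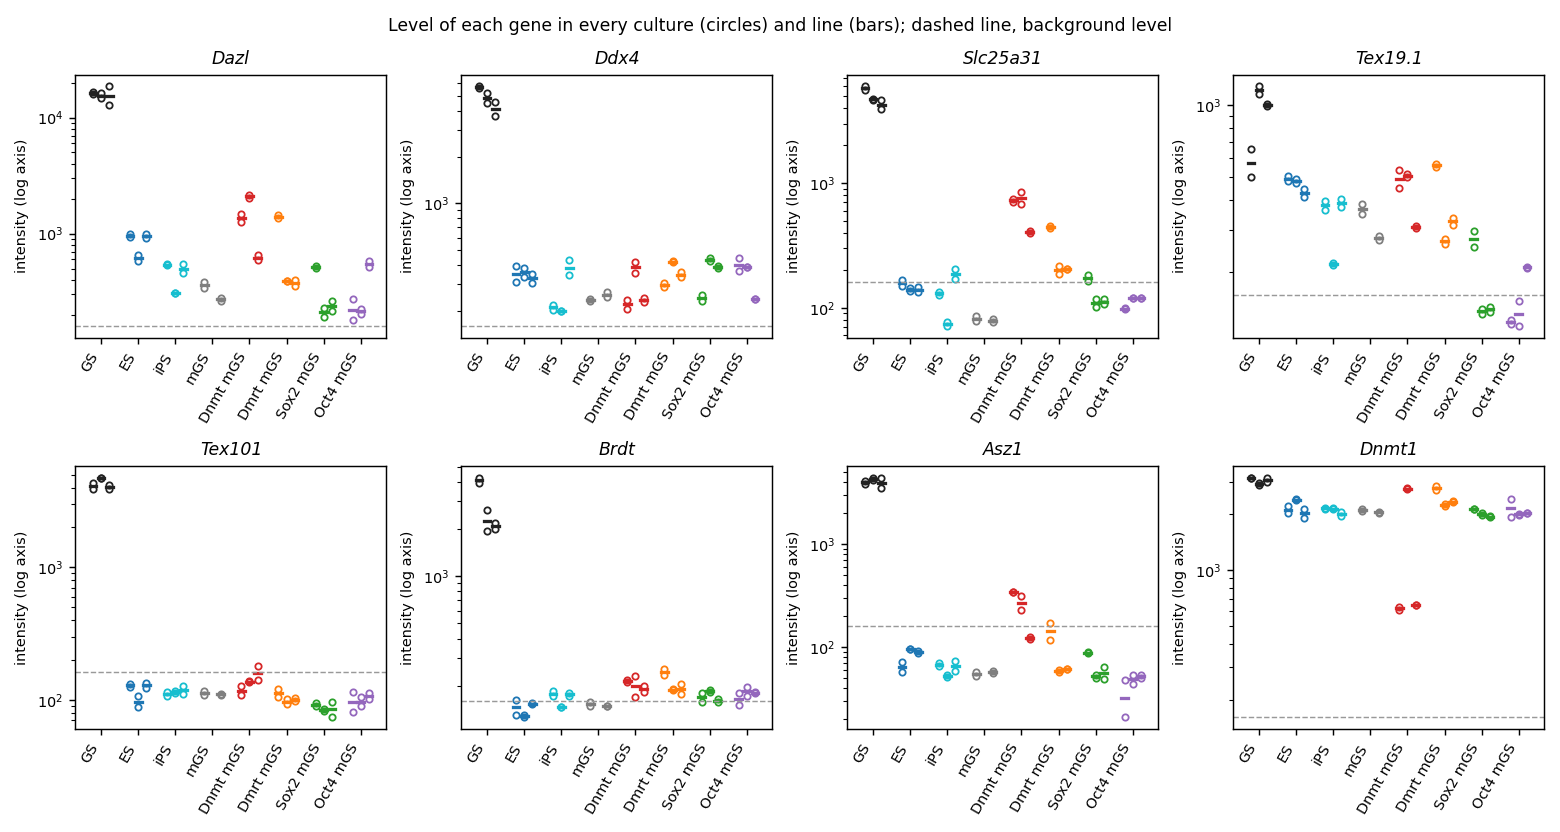
Intensity (log axis) of the 7 members and of Dnmt1 in each culture (circles) and line (bars) of the 8 groups, with the background level of 161 as a dashed line. GS lines are highest for each member. Outside GS the Dnmt mGS lines and Dmrt mGS 1 are the highest for Slc25a31 and Asz1, while Dnmt1 is low in Dnmt mGS 1 and 3 alone.

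Outside GS the members ranged from under the background level to well above it. Dazl had a lowest, median and highest line of 210, 508 and 2094. Slc25a31 ran from 74.3 through 139 to 755 and exceeded the background level in 8 of 20 lines, and Asz1 ran from 31.5 through 62.5 to 340 and exceeded it in 2 of 20, Dnmt mGS 1 and the line labelled Dnmt mGS 2. These 3 genes had a highest line about 10 times their lowest (9.96-fold for Dazl, 10.2-fold for Slc25a31 and 10.8-fold for Asz1, with the lowest line of the latter 2 under the background level). Tex19.1 ran from 124 through 318 to 561, with 16 of 20 lines above background. Ddx4 (201, 336 and 431), Brdt (129, 177 and 245) and Tex101 (84.1, 111 and 159) varied little. Brdt exceeded background in 14 of 20 lines, by a narrow margin, and Tex101 in 0 of 20.

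The order of the group means differed between members. For Dazl it ran from GS (15725) to Dnmt mGS (1208), ES (827), Dmrt mGS (593), iPS (435), mGS (314), Oct4 mGS (296.2) and Sox2 mGS (296.0). Only the step below GS separated neighbouring groups without overlap of lines. For Slc25a31 the groups next to GS (4853) were Dnmt mGS (605) and Dmrt mGS (264), which overlapped each other. Dmrt mGS did not overlap ES (145), which was followed by Sox2 mGS (129), iPS (122), Oct4 mGS (112) and mGS (80.3), all of them under the background level. For Asz1 Dnmt mGS (223) stood between GS (4088) and the rest (42.9 to 81.8) and did not overlap ES, the next group, although Dmrt mGS 1 (142) lay above Dnmt mGS 3 (121). For Tex19.1 ES (467), Dnmt mGS (426), Dmrt mGS (367), mGS (320) and iPS (319) overlapped from neighbour to neighbour, and Sox2 mGS (174) and Oct4 mGS (152) came last. For Ddx4 the order outside GS ran from Dmrt mGS (350.0), ES (344) and Sox2 mGS (343) to mGS (246), for Brdt from Dmrt mGS (207) down to ES (143), and for Tex101 from Dnmt mGS (137) to Sox2 mGS (86.7). Among these 3 genes, non-overlapping neighbours outside GS were Dnmt mGS and Oct4 mGS for Brdt and Oct4 mGS and Sox2 mGS for Tex101.

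The Dnmt mGS group was set against the other pluripotent groups, since DNMT1 is the enzyme that maintains methylation. Against iPS, ES and spontaneous mGS, which are not labelled with the p53 knockdown, it cannot be told apart from the Dnmt1 knockdown, nor can the lentivirus. Slc25a31 and Asz1 were called higher in Dnmt mGS against every reference. Dazl and Tex19.1 were called higher against the other induced routes alone, though every Dnmt mGS line lay above every iPS and spontaneous mGS line for Dazl. In Dnmt mGS lines 1, 2 and 3, Slc25a31 read 706 and 744, 842 and 677, and 399 and 412. In iPS lines 1, 2 and 5 it read 133 and 128, 76.7 and 71.9, and 205 and 169. All 6 Dnmt mGS cultures were above all 6 iPS cultures, the difference was 2.31 ± 0.32 (adjusted p = 9.8e-04), and the level was at least 3.76-fold that of iPS. Asz1 read 341 and 339.5, 310 and 231, and 119 and 124 in Dnmt mGS, so that Dnmt mGS 3 was under the background level, and 69.5 and 64.9, 53.7 and 50.9, and 72.5 and 57.7 in iPS. The groups did not overlap, and the difference was 1.87 ± 0.35 (adjusted p = 0.0058), at least 1.38-fold.

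Thus 2 of 7 members were higher in Dnmt mGS than in iPS, where 4.18% of all genes were. Over all genes 834 were higher and 535 lower, and 392 and 905 after such centring (539 and 678 with quantile normalization), under which both members kept their calls. The other 5 were not called. Dazl, at 1267 and 1470, 2164 and 2026, and 650 and 586 in Dnmt mGS, lay above every iPS culture, with a difference of 1.47 ± 0.51 (adjusted p = 0.089) that passed without Dnmt mGS 3 (1.96, adjusted p = 0.029), with the line as a random block (adjusted p = 0.0038) and with the culture number added to that block (0.0041). Tex19.1 differed by 0.42 ± 0.34, Brdt by 0.28 ± 0.18, Tex101 by 0.25 ± 0.12 and Ddx4 by 0.10 ± 0.27. Without the line labelled Dnmt mGS 2, Slc25a31 (2.15, adjusted p = 0.0043) and Asz1 (1.74, adjusted p = 0.023) kept their calls against iPS.

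Against ES, 2 of 7 were higher beside 6.77% of all genes (1350 higher and 913 lower, or 838 and 1136 with each array centred). Slc25a31 differed by 2.06 ± 0.32 (adjusted p = 0.0011), at least 3.76-fold, and Asz1 by 1.45 ± 0.35 (adjusted p = 0.013), at least 1.38-fold. Asz1 lost this call without Dnmt mGS 1 (1.14, adjusted p = 0.083) or Dnmt mGS 2 (1.31, adjusted p = 0.056), and with only the groups compared fitted (adjusted p = 0.10). Dazl differed by 0.55 ± 0.51 and was not called. It read 986 and 938 in ES R1, 659 and 581 in B6-6 and 911 and 989 in BRC1, which overlapped the Dnmt mGS lines. Against spontaneous mGS, 2 of 7 were higher beside 1.78% of all genes (354 higher and 190 lower, or 171 and 250 with each array centred), Slc25a31 by 2.91 ± 0.36 (adjusted p = 0.0012) and Asz1 by 2.00 ± 0.39 (adjusted p = 0.014). Here too the levels were at least 3.76-fold and at least 1.38-fold higher. Asz1 lost this call without Dnmt mGS 1, mGS 1 or mGS 2, and both lost it with only the groups compared fitted (adjusted p = 0.11 for Slc25a31 and 0.19 for Asz1). Dazl differed from mGS by 1.94 ± 0.57 (adjusted p = 0.071), without overlap of lines, and was not called. It was called in 4 of the 16 alternatives run. The comparisons with iPS, ES, mGS and the other routes share the Dnmt mGS lines and are not independent.

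Against the mean of the Dmrt, Sox2 and Oct4 routes, 5 of 7 were higher beside 8.85% of all genes (1765 higher and 2065 lower, or 1847 and 1179 with each array centred), and the median over the members was 1.00 (log2) against -0.06 over all genes. Slc25a31 rose by 1.95 ± 0.26 (adjusted p = 6.7e-04), Asz1 by 1.89 ± 0.28 (adjusted p = 0.0014), Dazl by 1.70 ± 0.42 (adjusted p = 0.012) and Tex19.1 by 1.00 ± 0.28 (adjusted p = 0.022). Lines overlapped for Slc25a31, Asz1, Dazl and Tex19.1, in each of which Dmrt mGS 1 lay above Dnmt mGS 3. For Asz1 both of these lines are under the background level. Tex101 was called at 0.51 ± 0.09 (adjusted p = 0.0036) without overlap, but with every line under the background level. Ddx4 differed by -0.33 ± 0.22 and Brdt by 0.13 ± 0.15, neither called. Dazl lost its call without Dnmt mGS 1 (1.61, adjusted p = 0.082) or without the line labelled Dnmt mGS 2 (1.30, adjusted p = 0.091), as did Tex19.1 (0.89 and 0.87). Fitting only the groups compared also ended both calls (adjusted p = 0.059 for Dazl and 0.055 for Tex19.1). Slc25a31 and Asz1 were at least 3.76-fold and at least 1.38-fold higher, since their mean over the other routes was under the background level. Markers of pluripotent cells moved in the same comparison. Of 8, 3 were higher in Dnmt mGS (Nanog, Esrrb and Tfcp2l1) and 0 lower, with a median of 0.89, and all 8 exceeded background in each Dnmt mGS line. Of the 10 feeder markers 0 were called, with a median of -0.85. The part of either in these differences of the members was not tested.

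**Figure D3:**
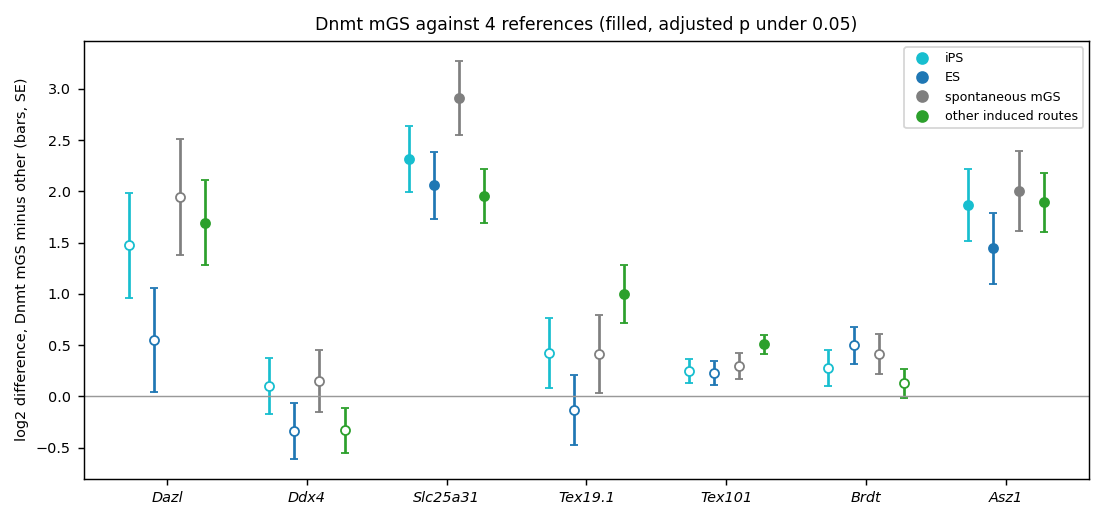
Log2 difference of Dnmt mGS from iPS, ES, spontaneous mGS and the mean of the other induced routes (y axis) for each member (x axis), with bars for limma's standard error and filled points for adjusted p under 0.05. Slc25a31 and Asz1 are filled against all 4 references, Dazl, Tex19.1 and Tex101 against the other routes.

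Levels of the members in Dnmt mGS stayed below those in GS, whether or not the member was called higher than in iPS. As a share of the GS mean, Dnmt mGS held 12.5% of Slc25a31, 7.68% of Dazl, 7.51% of Brdt, 5.64% of Ddx4, 5.45% of Asz1 and 3.2% of Tex101, the last at background. Tex19.1 stood at 48.8%. The iPS shares were 2.51% of Slc25a31, 2.77% of Dazl, 6.2% of Brdt, 5.26% of Ddx4, 1.49% of Asz1, 2.69% of Tex101 and 36.5% of Tex19.1. ES held a larger share than Dnmt mGS of Ddx4 (7.13%) and Tex19.1 (53.6%), and a smaller share of the others.

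In both low-Dnmt1 lines, 0 of 7 members were higher than in the line labelled Dnmt mGS 2, beside 6105 of all 19938 genes. The part of Dnmt1 in this was not tested. The lines with low Dnmt1, Dnmt mGS 1 and 3, were set against the line labelled Dnmt mGS 2 as a description, with no test, since the split rests on Dnmt1 read from the same arrays. Dazl was 1365 in line 1 and 617 in line 3 but 2094 in line 2, which thus exceeded them by 1.53-fold and 3.39-fold. Slc25a31 was 725 and 405 against 755, Tex19.1 492.6 and 309 against 508, and Ddx4 221 and 236 against 385. In these 4 genes the line without low Dnmt1 was the highest of the 3. For Slc25a31 and Tex19.1, though, it exceeded line 1 by only 1.04-fold and 1.03-fold, and the cultures overlapped. Slc25a31 read 842 and 677 in line 2 against 706 and 744 in line 1. Tex19.1 read 500 and 516 in line 2 against 538 and 451 in line 1. Asz1 split the low lines, at 340 and 121 around 268 in line 2. Brdt (215 and 192 against 199) and Tex101 (117 and 159 against 137) also lay on both sides.

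Counted over the members, 0 of 7 were at least 2-fold higher in both low-Dnmt1 lines than in line 2, against 0.672% of all genes. None was at least 2-fold lower in both, against 0.15% of all genes. Lower by any size in both were 4 of 7, against 38.7% of all genes. Between lines 1 and 3, which have almost the same Dnmt1, Asz1 was at least 2.11-fold higher in line 1, with line 3 under the background level, and Dazl was 2.21-fold higher. Markers of the fibroblast feeders moved with this split. All 10 were higher in both lines 1 and 3 than in line 2, 8 of them at least 2-fold, with the fibroblast gene Cdh11 at 353 and 2708 against 125 and the myofibroblast actin Acta2 at 504 and 4410.3 against 234. The summed level of the 10 was 14368 in line 1, 9913 in line 2 and 29194 in line 3, against 9691 to 11560 in iPS, and 10, 8 and 10 of the markers exceeded background in lines 1, 2 and 3. In bulk RNA, more feeder cells and more of these transcripts per cell cannot be told apart, and the part of feeder RNA in the line differences was not tested.

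**Figure D4:**
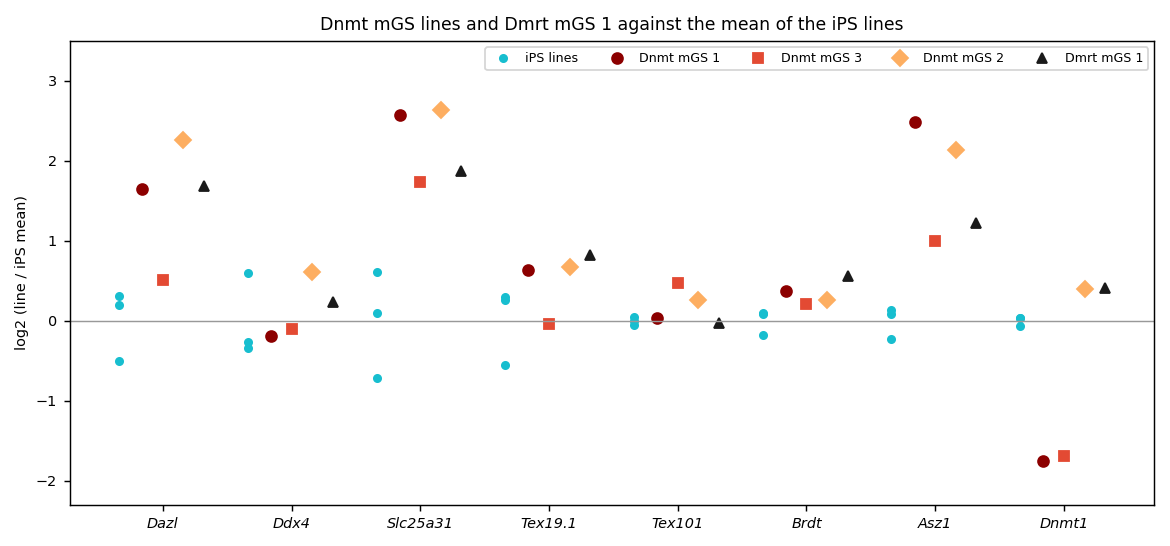
Log2 of each line over the iPS mean (y axis) for the 7 members and Dnmt1 (x axis), with the 3 iPS lines, the 3 Dnmt mGS lines and Dmrt mGS 1 as separate symbols. Dnmt1 is low in Dnmt mGS 1 and 3 and not in Dnmt mGS 2 or Dmrt mGS 1, while Dazl and Slc25a31 are above iPS in Dnmt mGS 2 and Dmrt mGS 1 as well. Asz1 is under the background level in iPS, Dnmt mGS 3 and Dmrt mGS 1.

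Taken line by line against the iPS mean, 3 lines had both Dazl and Slc25a31 at least 2-fold higher. Measured levels were used here, and those of Asz1 and Slc25a31 in iPS are mostly under the background level. In Dnmt mGS 1 these were Dazl, Slc25a31 and Asz1, 3 of 7 members against 2.07% of all genes. The line labelled Dnmt mGS 2 had the same 3 (2.23% of all genes), and in Dmrt mGS 1 (1.79% of all genes), in which Dnmt1 read 2840 and 2706, Dazl and Slc25a31 passed. The measured Asz1 ratio also passed 2-fold there, between levels that are both under the background level. Dnmt mGS 3 had Slc25a31 only (2.4% of all genes), with Asz1 under the background level. In Dmrt mGS 1 Dazl was 1352 and 1457, Slc25a31 437 and 453, Tex19.1 569 and 554, and Asz1 117 and 171, a mean under the background level. The other Dmrt mGS lines read 392 and 378 for Dazl, 202 and 206 for Slc25a31 and 58.2 and 61.2 for Asz1. So 1 of the 3 Dmrt mGS lines stood apart from its group in these genes, as it did in profile. Among the remaining lines, ES R1 and ES BRC1 passed 2-fold for Dazl.

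The other groups were set against iPS in the same way. Dmrt, Sox2 and Oct4 mGS also differ from iPS by the p53 knockdown and the lentivirus, which cannot be told apart from the route. For Dmrt mGS, 0 of 7 were called (0.848% of all genes in either direction, 71 higher and 98 lower, or 33 and 318 with each array centred), with Slc25a31 at 1.12 ± 0.32 (adjusted p = 0.10). Slc25a31 was called in 4 of the alternatives run, with the line as a random block (adjusted p = 0.0030), that block with the culture number, the line number as a block (0.043) or all arrays as independent samples. For spontaneous mGS 0 of 7 were called by limma, as were 0% of all genes, while 225 genes had an unadjusted p under 0.05. No alternative processing that was run called a member here. For ES, 0 of 7 were called beside 0.627% of all genes (67 higher and 58 lower, or 48 and 65 with each array centred), with Dazl at 0.92 ± 0.51 and Tex19.1 at 0.55 ± 0.34. In Oct4 mGS 1 of 7 was lower, against 3.43% of all genes (2066 higher and 683 lower, or 356 and 1246 with each array centred). This was Tex19.1, which, at 121 and 126, 151 and 120, and 209 and 210 in the 3 lines, differed from iPS by -1.07 ± 0.34 (adjusted p = 0.046). Its level in iPS was at least 1.98-fold that of Oct4 mGS, and the call was lost without iPS 1, iPS 5, Oct4 mGS 1 or Oct4 mGS 2. In Sox2 mGS 1 of 7 was lower, against 9.22% of all genes (2869 higher and 1839 lower, or 1283 and 3003 with each array centred). This was Tex101 at -0.41 ± 0.12 (adjusted p = 0.018), under the background level in both groups, and its call was lost without iPS 2, iPS 5, Sox2 mGS 2 or Sox2 mGS 3. Tex19.1 in Sox2 mGS read 276, 137 and 140 in lines 1, 2 and 3, with a difference of -0.87 ± 0.34 (adjusted p = 0.072). Feeder markers summed to 30216 to 40867 in Sox2 mGS and 17731 to 32337 in Oct4 mGS, above the iPS range. Of the 8 pluripotent markers 5 were lower in Sox2 mGS than in iPS, with a median of -1.45, and 0 were called in Oct4 mGS, with a median of -1.16. Their summed level was 11649 to 18384 in Sox2 mGS and 12010 to 26111 in Oct4 mGS, against 22117 to 30299 in iPS. The part of either marker list in these falls was not tested.

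Other germline genes linked to methylation were read from a list of 36, of which 34 were measured. In Dnmt mGS against iPS, 11 of 34 were higher, 1 was lower and 22 were not called, with a median of 0.54 against 0.05 over all genes, of which 4.18% were higher. Without the line labelled Dnmt mGS 2 it was 6 of 34 (1.98% of all genes), and without Dnmt mGS 1 it was 5 (1.14%). Smc1b, the meiotic cohesin subunit, was 755, 657 and 591 in Dnmt mGS lines 1, 2 and 3 against a mean of 93.4 in iPS (2.83 ± 0.73, adjusted p = 0.028). Hormad2, a protein of the meiotic chromosome axis, was 328, 669 and 328 against 84.9 (2.29 ± 0.54, adjusted p = 0.018). Both lost their call without Dnmt mGS 1 (adjusted p = 0.10 for Smc1b and 0.052 for Hormad2) or without the line labelled Dnmt mGS 2 (0.071 and 0.078). The iPS means of Smc1b and Hormad2 are under the background level, so the sizes of their differences are uncertain. The synaptonemal complex genes Syce1 (1.40 ± 0.39) and Sycp1 (1.31 ± 0.24) also rose, as did the piRNA factor Mael (1.55 ± 0.35), the germ cell gene Stk31 (1.59 ± 0.40), the tubulin gene Tuba3a (1.75 ± 0.48) and the mRNA export gene Nxf2 (1.00 ± 0.22). The iPS mean of Stk31 is under the background level too, and calls of these genes without 1 line are not given here. The RNA helicase gene D1Pas1 fell (-0.99 ± 0.24, adjusted p = 0.022).

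Against the other induced routes 18 of the 34 were higher, beside 8.85% of all genes, and 2 lower, with a median of 0.72 against -0.06. Without the line labelled Dnmt mGS 2 it was 10 (3.53% of all genes), and without Dnmt mGS 1 it was 7 (1.6%). Here the cohesin gene Stag3 was higher too (1.46 ± 0.41). The lower genes were Rbm46 (-0.99 ± 0.26), at 86.3 to 105 in Dnmt mGS and so under the background level, and Dmrtb1 (-0.21 ± 0.07). Against ES 5 were higher (6.77% of all genes) and 1 lower, and against spontaneous mGS 10 (1.78% of all genes) and 0. Without the line labelled Dnmt mGS 2 these were 3 and 6 higher, and without Dnmt mGS 1 they were 2 and 5. In Dmrt mGS against iPS 0 of 34 were called by limma. Line by line, the number at least 2-fold above the iPS mean was 12 in Dnmt mGS 1, 11 in the line labelled Dnmt mGS 2, 5 in Dnmt mGS 3, 8 in Dmrt mGS 1, beside 2.07%, 2.23%, 2.4% and 1.79% of all genes in these lines, and 0 or 1 in the other Dmrt mGS lines. The number was 7 in ES R1, 5 in ES B6-6 and 4 in ES BRC1, beside 0.58%, 1.57% and 2.16% of all genes. Within Dnmt mGS, 0 of the 34 were at least 2-fold above line 2 in both low-Dnmt1 lines and 2 were at least 2-fold below it, beside 0.672% and 0.15% of all genes. In GS against iPS 28 were higher, beside 35.5% of all genes, and 0 lower.

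**Figure D5:**
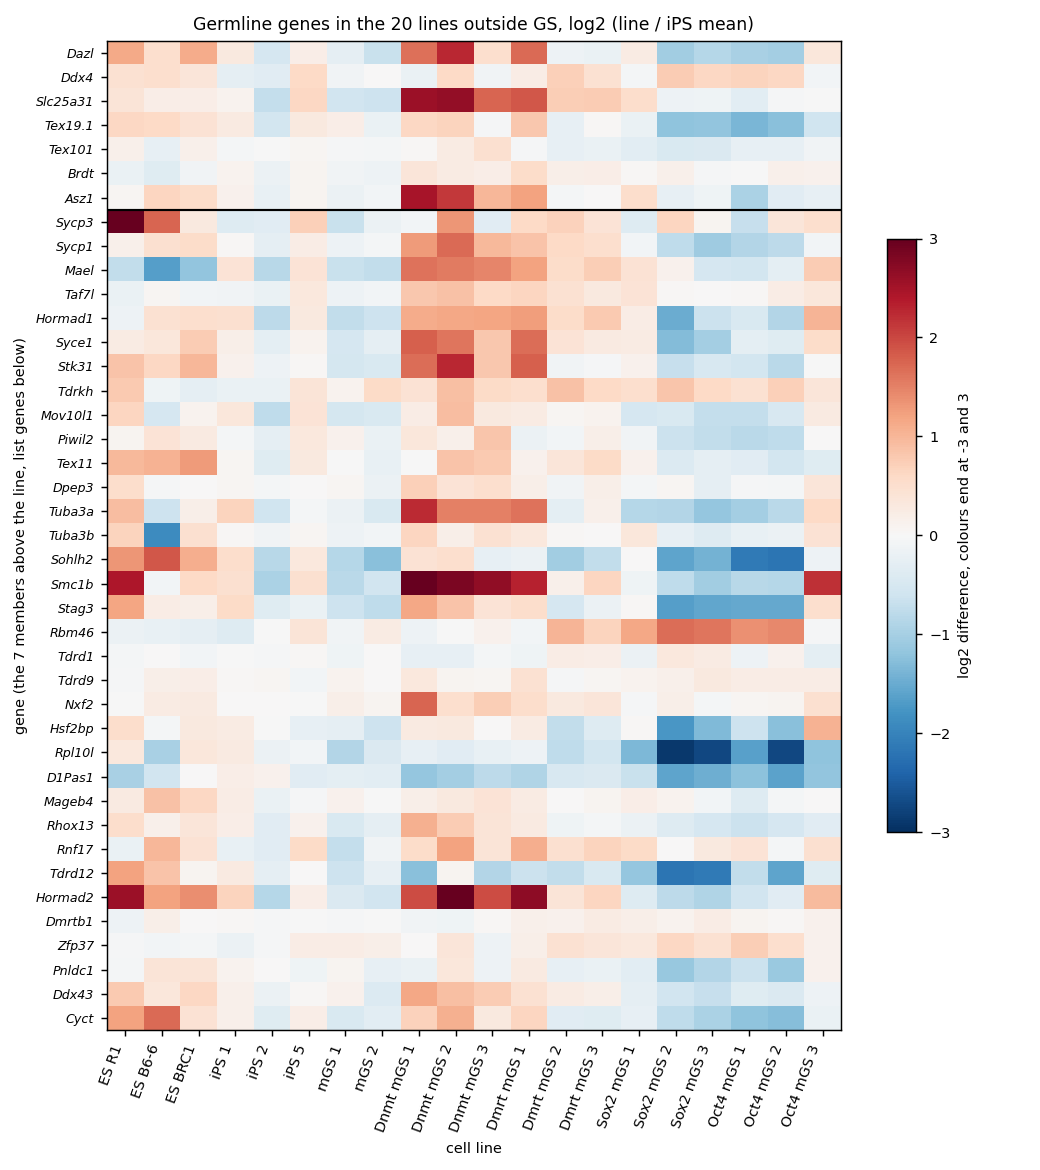
Log2 of each of the 20 lines outside GS over the iPS mean (colour, red higher and blue lower, ending at -3 and 3) for the 7 members and the 34 measured genes of the methylation-linked list (rows) by line (columns). Slc25a31 is highest in the 3 Dnmt mGS lines and Dmrt mGS 1. By measured levels, Smc1b is at least 2-fold above iPS in these lines and also in ES R1 and Oct4 mGS 3, and Hormad2 in these lines and in all 3 ES lines. The iPS means of both genes are under the background level.

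Of 16 measured genes of DNA methylation and demethylation, 0 rose and 1 fell in Dnmt mGS against iPS, the methyl-CpG-binding family gene Mbd3 (-0.79 ± 0.23, adjusted p = 0.047). Over all 19938 genes 834 rose and 535 fell, so these counts are near the background. Without the line labelled Dnmt mGS 2, Mbd3 lost its call (adjusted p = 0.17, and 0.19 without Dnmt mGS 1) and Dnmt1 fell against iPS (-1.73 ± 0.09, adjusted p = 3.1e-08). Against the other routes 3 were higher and 3 lower, beside 1765 higher and 2065 lower among all 19938 genes. The maintenance gene Dnmt1 was lower (-1.07 ± 0.28, adjusted p = 0.018), as were the de novo methyltransferase gene Dnmt3b (-1.43 ± 0.43, adjusted p = 0.029) and the dioxygenase gene Tet3 (-0.44 ± 0.10). The imprint guardian Zfp57 (0.71 ± 0.19), Tet2 (1.07 ± 0.36) and Dppa3 (1.28 ± 0.42), which shields methylation in the zygote, were higher. Against iPS these differed by 0.30 ± 0.23, 0.13 ± 0.43 and -0.04 ± 0.52, none called. Tet2 read 395 to 1047 in Oct4 mGS and 399 to 1854 in Sox2 mGS. It read 1584 to 2633 in Dnmt mGS and 1459 to 2108 in iPS. Without the line labelled Dnmt mGS 2, Dnmt1 (-1.77 ± 0.08) and Tet3 (-0.54 ± 0.11) were called and the other 4 were not, Dnmt3b at -1.04 ± 0.48 (adjusted p = 0.18). Without Dnmt mGS 1, 0 of the 16 were called by limma against the other routes, beside 319 higher and 223 lower among all 19938 genes. Dnmt3b read 534 in the line labelled Dnmt mGS 2, 733 in Dmrt mGS 1 and 807 in Dnmt mGS 1, the 3 lowest of the 20 lines outside GS, but 1804 in Dnmt mGS 3. In GS its mean was 450 and in iPS 1601 to 1780. Dnmt3a was 536, 777 and 2070 in Dnmt mGS lines 1, 2 and 3, and Uhrf1 was 2830, 2622 and 2074. Dnmt3l and Tet1 were not called different from iPS (-0.66 ± 0.29 and 0.05 ± 0.16). How far these levels bear on the members was not tested.

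Of 20 genes known as repressors of germline genes, 0 rose and 0 fell in Dnmt mGS against iPS by limma, beside 4.18% of all genes higher. Against the other routes the MGA complex gene Mga (0.30 ± 0.10) and the polycomb subunit Rybp (0.41 ± 0.08) rose, and E2f6 (-0.47 ± 0.15) and the chromosome-structure gene Smchd1 (-0.57 ± 0.12) fell. These 4 of 20 compare with 19.2% of all genes called in either direction, so the count was near the background.

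The summed level of spermatogonial markers did not rise in Dnmt mGS over iPS. Of 10, 0 were called different between Dnmt mGS and iPS, beside 1369 of all 19938 genes. A count of 0 is thus near the background. Zbtb16, the gene of the stem cell factor PLZF, read 151, 142 and 133 in Dnmt mGS lines 1, 2 and 3, under the background level, against a mean of 11648 in GS. The summed level of the 10 was 2931 to 5299 in Dnmt mGS, 4103 to 5416 in iPS and 29482 to 40571 in GS. It was 2667 in Dmrt mGS 1, the lowest of all lines. The GDNF receptor genes Ret (-0.62 ± 0.15) and Gfra1 (-0.67 ± 0.20) were lower in Dnmt mGS than in the other routes. They were 2 of 10 markers, beside 2065 lower among all 19938 genes.

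Across the 20 lines outside GS the members did not all vary together. As a description, the Pearson r of log2 levels was 0.89 for Slc25a31 with Asz1, 0.85 for Dazl with Tex19.1, 0.85 for Dazl with Asz1 and 0.79 for Dazl with Slc25a31, while Ddx4 had r between -0.37 and 0.02 with each of the others. These lines share strain and feeders in part, and several members lie near the background level. The genes most like the mean pattern of the members over all 23 lines were Tktl1 (r = 0.99) and Pramel1 (r = 0.99), both with their highest line in GS 2, followed by Mir465, Mov10l1, Taf7l, Tex13b, Fam163a and Gm773. Over the 20 lines outside GS they were Stk31 (r = 0.96), which was highest in the line labelled Dnmt mGS 2, Gm4779 (r = 0.94), 1700018B24Rik (r = 0.93) and Tex12 (r = 0.93), then Tktl1, Sycp1, Rhox13 and 8030474K03Rik.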

How the data were processed

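The authors deposited values on a linear intensity scale, for 28856 probe sets and 46 arrays. Their scaling is not stated in the labels, and the submitters' processing notes name mm9. Per the labels' protocols, cells stood on gelatin to remove feeders before RNA was taken.

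Log2 was taken with no offset, probe sets with 1 symbol were kept (19938 genes, the brightest probe set of a gene), and the 2 cultures of a line were averaged. A model over all 23 lines was fitted with limma 3.58.1 in R 4.3.3 (15 residual and 2.71 prior degrees of freedom), with Benjamini-Hochberg adjustment over all genes at 0.05. The other routes are the equal-weighted mean of 3 groups. A fold against a group under the background level is the brighter mean over 161, written as at least. The number of arrays limits the precision.

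Members, gene lists, comparisons and alternatives were chosen with earlier results of these data known. The text names all members and, from each list, up to 8 genes called for Dnmt mGS against iPS or the other routes, in order of difference, the genes that fell where they were few (chosen after their values were seen), 6 methylation genes, marker genes, and the 8 genes most like the members' mean pattern. Correlations of profiles between lines were added after the data were seen. The fit was checked on simulated data. Upstream windows came from RefSeq (GRCm38.p6). Alternatives are in the closing section. Tables and figures used Python 3.11.15, pandas 2.3.3 and matplotlib 3.10.9.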

Additional observations from a re-analysis of the deposited data

Results flagged for a closer look

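Brdt in culture 2 of mGS 1, at 157, lay apart from the other 3 arrays of spontaneous mGS (149 to 149), all under the background level. Asz1 in culture 1 of Oct4 mGS 1, at 20.8, lay below the other 5 arrays of its group (43.8 to 53.7), also under background, and this array has the highest median of all. These were 2 of 56 such checks of members within groups. The rate of about 1 in 20 flagged by chance holds for independent arrays, and 2 cultures of a line are not independent. A line that stands apart with both its cultures would be missed.

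The change from GS was smaller in Dnmt mGS than in the other induced routes for 5 members, by limma's test of the difference: 1.70 (log2) for Dazl, 1.95 for Slc25a31, 1.00 for Tex19.1, 1.89 for Asz1 and 0.51 for Tex101, the last under the background level. The GS lines cancel in this difference, so it equals that of Dnmt mGS from the other routes.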

How the results depend on the processing

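Over 112 differences of members and 1893 alternative settings, 1833 kept direction and side of the threshold, 36 lost a call, 24 gained one and 0 reversed. Counts of members called, against GS, stayed between 5 and 7 of those tested. With all 46 arrays as independent samples the count was 4 for Dnmt mGS against iPS, 5 against mGS, 1 for Dmrt mGS against iPS and 3 for Sox2 mGS against iPS. With the line as a random block it was 1 for Dmrt mGS and 2 for Sox2 mGS against iPS, and the same, 1 and 2, with the culture number as a replicate block. With the line number as a replicate block it was 1 for Dmrt mGS against iPS and 0 for Oct4 mGS against iPS. Of 30 same-number pairs of lines, 13 had r over 0.1 (-0.64 to 0.79). All 3 pairs did for Dnmt mGS with Sox2 mGS and for Dmrt mGS with Sox2 mGS, and not for the other 8 pairs of groups, so the numbers were not taken to pair the samples. Fitting only the groups compared gave 1 for Dnmt mGS against ES, 0 against mGS, 3 against the other routes and 0 for Oct4 mGS against iPS. Leaving out the dimmest 40% of genes, which drops Asz1 and Tex101, gave 1 for Dnmt mGS against iPS, ES and mGS, 3 against the other routes and 0 for Sox2 mGS. An offset of 50 gave 0 for Oct4 mGS against iPS. Leaving out each line in turn gave 1 to 2 for Dnmt mGS against ES, 2 to 3 against iPS, 1 to 3 against mGS, 3 to 5 against the other routes, 0 to 2 for Sox2 mGS and 0 to 1 for Oct4 mGS against iPS. The causes were not tested.

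Counts over all genes moved more. Over the alternatives they ran from 279 to 5189 for Dnmt mGS against iPS (1369 as reported), 330 to 6136 against ES (2263), 4 to 4198 against mGS (544), 542 to 8946 against the other routes (3830), 7 to 3930 for Dmrt mGS against iPS (169), 2420 to 9162 for Sox2 mGS (4708), 934 to 7926 for Oct4 mGS (2749), 22 to 2318 for ES (125) and 0 to 6 for spontaneous mGS (0). Quantile normalization moved no line level of a member by more than 0.39 (log2). Levels near 161 carry little signal over background, which limits Asz1, Tex101, Brdt and Slc25a31 outside GS.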
